A study of Mus musculus with 4 samples.

Results

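Semaphorins and their plexin and neuropilin receptors were examined in medulloblastoma cells of the mouse, of the SHH (Sonic Hedgehog) subtype, with and without an inhibitor of Smoothened, the membrane protein that carries the Hedgehog signal into the cell. The members are the 20 semaphorin genes, 9 plexin genes and 2 neuropilin genes of the mouse, chosen by symbol, together 31 of the 55573 genes in the table. The cells, labelled SmoWT, have the genotype Ptch1+/-, Trp53-/- on the C57BL/6 strain and were grown as neurospheres, that is, floating clusters. All 4 libraries share this genotype, strain and culture, and the groups differ only in treatment: DMSO, the solvent, or GDC0449 (vismodegib) at 0.1 µM, each for 24 h, with 2 libraries per group. The labels do not say whether the 2 libraries of a group came from separate cultures or from how many tumours the cells derive. Each p-value therefore rests on a spread among libraries, pooled largely over genes, that may be technical alone.

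Semaphorins are secreted or membrane-bound signalling proteins that share a sema domain and steer axons and migrating cells, often by repulsion. Plexins are their main receptors; the cytoplasmic part of a plexin acts on small GTPases and, through these, on the cytoskeleton and adhesion. Most class 3 semaphorins, which are secreted, need a neuropilin as binding co-receptor beside a plexin of the A family, whereas the membrane-bound classes bind plexins directly. In the mouse cerebellum, Sema6a with Plxna2 acts in the migration of granule neurons, and Plxnb2 with its ligands Sema4c and Sema4g acts in granule neuron progenitors, from which this tumour type arises.

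After 24 h of GDC0449, 7 semaphorins rose, with Sema3f (3.30-fold) and Sema7a (2.61-fold) among them, and of the receptors only Plxna2 (1.75-fold) did. Of the 25 members with enough reads to be tested, 8 rose and 0 fell, where 8.68% of all 15472 tested genes were called higher and 3.85% were called lower. A call means an adjusted p under 0.05 in edgeR's quasi-likelihood test, with Benjamini-Hochberg adjustment over all tested genes, and a fold change over 1.5. Among 17 tested semaphorins 7 rose, which is 41.2%, and among 8 tested receptors 1 rose, which is 12.5%. Whether ligands and receptors differ in these shares was not tested. The median log2 fold change was 0.67 over the tested semaphorins, 0.09 over the tested receptors and 0.01 over all tested genes. With edgeR 4 members were lower at an unadjusted p under 0.05, and DESeq2 and limma-voom also called 0 members lower. With no fold threshold, 12 members were higher and 2 lower at the adjusted p, against 18.1% of all tested genes in each direction.

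**Figure D1:**
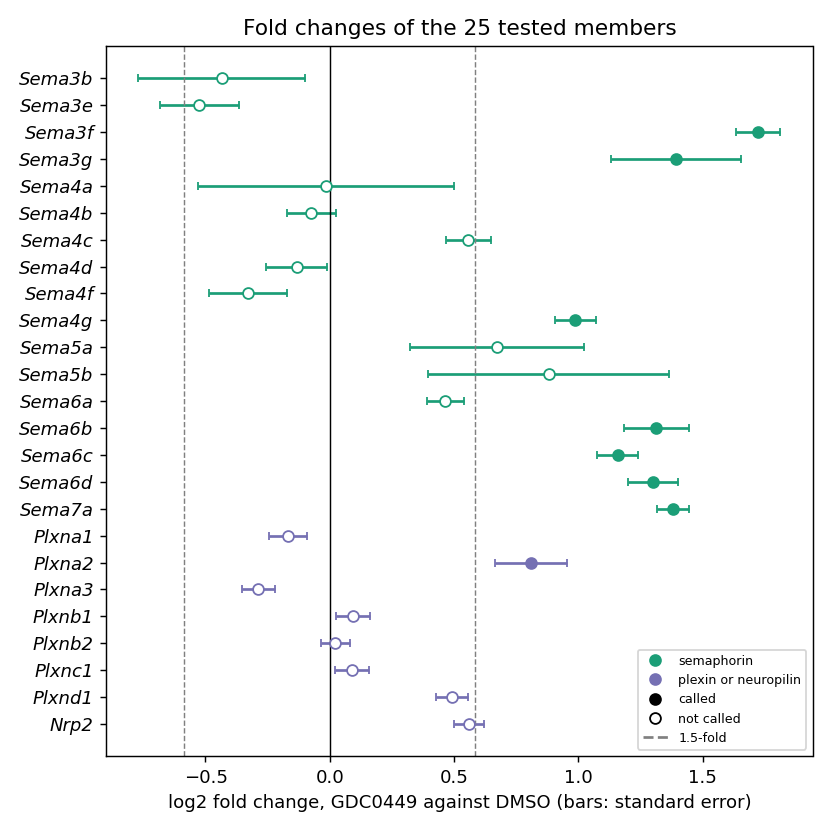
Log2 fold change (GDC0449 against DMSO, x axis) with its standard error for each of the 25 tested members (y axis), 2 libraries per group; filled points were called and dashed lines mark 1.5-fold. The 8 filled points, 7 semaphorins and Plxna2, lie between 0.81 and 1.72, and no filled point lies to the left of 0.

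Reads in genes numbered 16329721 to 20790030 per library. Gli1, a transcription factor that reports Hedgehog activity, fell 7.61-fold and Hhip, a secreted Hedgehog antagonist, 5.90-fold (edgeR adjusted p = 1.67e-36 and 1.10e-28). All 6 granule neuron progenitor markers and all 6 early neuron markers had reads, with summed levels of 825 ± 2.40 CPM and 799 ± 36.2 CPM in DMSO (CPM are read counts scaled to library size with TMM factors; SD, n = 2). Markers of other cell types were scarce or mixed. Summed over 6 genes each, microglia and macrophage markers lay at 0.807 to 2.55 CPM in any library, endothelial and pericyte markers at 1.19 to 2.86 CPM and fibroblast and meningeal markers at 1.24 to 2.84 CPM. Aqp4, Olig1, Kdr, Cdh5 and Lum had 0 reads in all 4 libraries.

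Several sequences upstream of the gene starts are shown for 3 semaphorins that rose and for 1 receptor that was not called. All 3 semaphorins shown hold the E-box marked below, and other risen members lack it, so the sequences shown do not stand for the members. RefSeq start sites (GRCm38.p6) were found for 26 of the 31 members, with 37 windows of 250 bases upstream, and 12 short motifs were searched in them on both strands, a choice made after the values were seen. Shown in lower case, 5′ to 3′ on the gene's strand, are stretches that lie outside annotated exons, with the E-box CAGCTG in capitals, a site of the kind that basic helix-loop-helix factors bind. Sema7a is shown as the most abundant semaphorin (chr9:57939862-57940111, plus strand), Sema3g as a risen ligand of neuropilin-2 (chr14:31217623-31217859, plus strand), Sema6c at the downstream one of its RefSeq starts (chr3:95164089-95164305, plus strand), and Plxnc1 as the receptor of Sema7a, which lacks the motif in this window (chr10:94944846-94945095, minus strand).
Sema7a: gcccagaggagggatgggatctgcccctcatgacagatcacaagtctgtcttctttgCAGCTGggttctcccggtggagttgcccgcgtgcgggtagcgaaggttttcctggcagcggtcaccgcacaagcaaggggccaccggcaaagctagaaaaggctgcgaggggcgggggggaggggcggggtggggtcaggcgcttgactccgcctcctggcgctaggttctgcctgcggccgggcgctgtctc
Sema3g: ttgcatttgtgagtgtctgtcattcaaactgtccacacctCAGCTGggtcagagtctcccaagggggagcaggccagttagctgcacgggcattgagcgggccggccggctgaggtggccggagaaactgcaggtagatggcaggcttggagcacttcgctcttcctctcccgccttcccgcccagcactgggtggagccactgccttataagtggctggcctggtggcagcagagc
Sema6c: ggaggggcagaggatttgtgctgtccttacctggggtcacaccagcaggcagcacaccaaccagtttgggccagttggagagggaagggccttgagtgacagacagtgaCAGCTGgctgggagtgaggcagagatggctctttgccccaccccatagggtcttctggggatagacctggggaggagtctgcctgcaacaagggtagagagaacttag
Plxnc1: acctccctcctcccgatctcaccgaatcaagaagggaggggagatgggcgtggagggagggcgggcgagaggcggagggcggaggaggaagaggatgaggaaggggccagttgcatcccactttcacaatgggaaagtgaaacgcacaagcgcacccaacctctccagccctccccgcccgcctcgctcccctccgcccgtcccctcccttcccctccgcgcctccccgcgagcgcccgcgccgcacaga
The motif lies 193 bases upstream of the start in Sema7a, 210 in Sema3g and 141 in Sema6c.

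Motifs were counted over the full 250 bases of each window, annotated exon included. CAGCTG was present in 6 of 37 member windows. It was in 4 of the 10 windows of risen members, 1 window each of Sema3g, Sema4g, Sema6c and Sema7a. The risen Sema6b, Sema6d and Plxna2 lacked it, while Sema4d, which was not called, and Plxnb3, which was not tested, held it. In Sema4g and Sema4d the match lay outside the longest stretch free of annotated exon. The share that holds it is 13.0% over all 32851 RefSeq windows. CAGATG and CACGTG, which are also E-boxes, were found in 2 member windows each, against 14.4% and 6.02% of all windows. The Gli motif GACCACCCA and its shorter core ACCACCCA, which overlaps it, were in 0 of 37 windows, and 0.225% and 1.28% of all windows hold them. GGGCGG, the GC box, was in 27 of 37 windows against 32.7% of all, and TATAAA in 0 against 12.4%. CCAAT was in 7 (33.8% of all), TGACG in 1 (17.8% of all), and TGACGTCA, ATTGCATCA and TGATGCAA in 0 (1.55%, 0.167% and 0.791% of all). A match is a description of letters, and a missing match says only that these letters are absent from that window.

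To compare genes, counts were divided by the length of annotated exon, as RPKM (CPM per kilobase of exon). In both groups 18 of 31 members were at 1 RPKM or more. Plxnb2, a plexin expressed by granule neuron progenitors, stood first, at 395 ± 30.0 RPKM in DMSO and 401 ± 27.6 RPKM in GDC0449, and made up 77.6% to 81.1% of all receptor RPKM in each library. Sema7a, a semaphorin anchored to the membrane by a lipid, came next at 35.6 ± 0.0831 and 92.8 ± 4.38 RPKM. In DMSO it was followed by Nrp2 at 22.0 ± 0.201, Plxna3 at 20.3 ± 1.77, Plxnd1 at 19.2 ± 1.57, Plxnc1 at 13.9 ± 1.14 and Plxnb1 at 11.9 ± 0.269 RPKM. Plxna3 and Plxnd1 overlapped in DMSO and so have no order there. In GDC0449 Plxnd1 was at 27.1 ± 0.0546 and Plxna3 at 16.7 ± 0.0239 RPKM, and these did not overlap. Sema6c, Sema4b, Sema4g and Sema3f formed a run in DMSO at 4.67, 4.44, 4.23 and 3.999 RPKM in which each overlapped the next. In GDC0449 Sema3f had passed the others of that run, at 13.2 ± 1.34 RPKM. On the authors' deposited FPKM, Nrp2 stood above Sema7a in DMSO, and Plxnb2 was first in both groups.

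**Figure D2:**
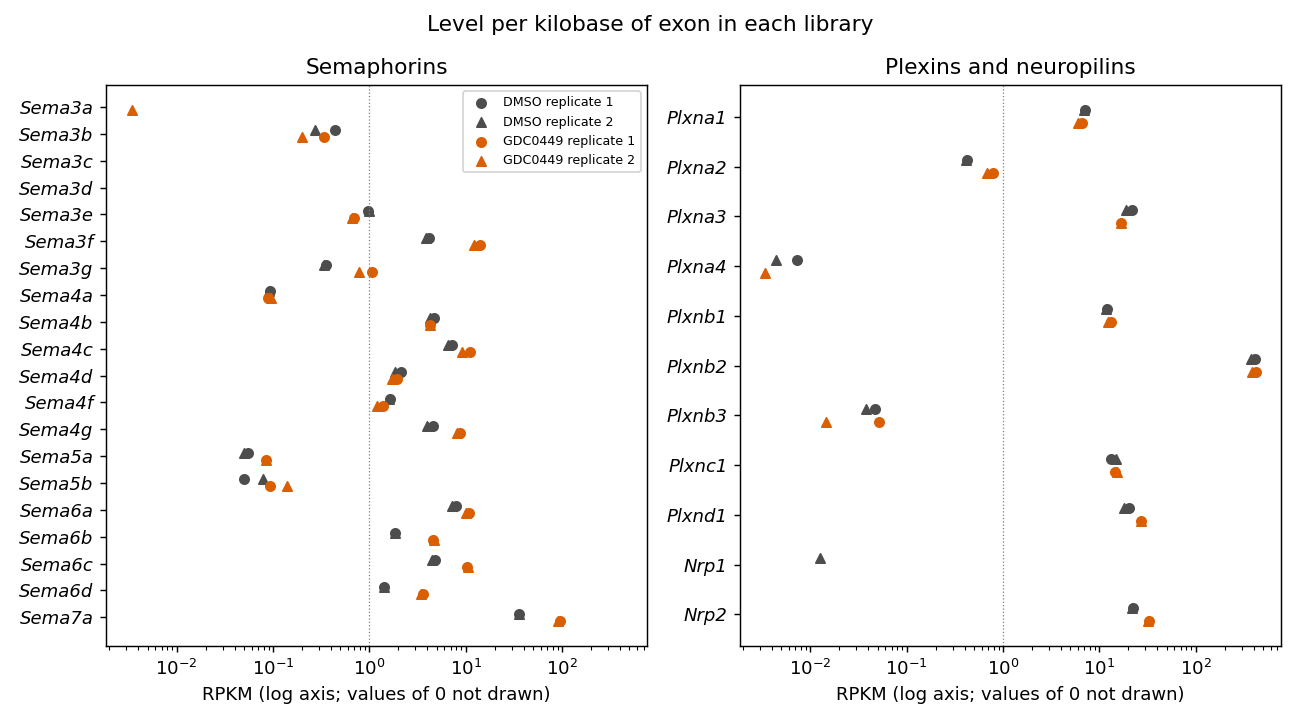
RPKM of each member in each library on a log axis (x), with semaphorins on the left and receptors on the right; grey marks DMSO, orange GDC0449, and the dotted line 1 RPKM. Plxnb2 lies far to the right of every other receptor, and Sema3c and Sema3d have no point because they had 0 reads.

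Sema7a (ENSMUSG00000038264, chromosome 9, 57940112 to 57962865 in GRCm38, the build of all gene positions given here), the single member of class 7, had the highest level of the semaphorins. It was at 117 and 118 CPM in the DMSO libraries and at 316 and 296 CPM in the GDC0449 libraries. The groups lay far apart, with the DMSO libraries nearly equal. The fold change was 2.61 (log2 1.38, standard error 0.06, edgeR adjusted p = 4.53e-25). Its receptor Plxnc1 (ENSMUSG00000074785, chromosome 10, 94790866 to 94944835) was at 109 and 123 CPM in DMSO and 121 and 126 CPM in GDC0449. These groups overlapped, and the log2 fold change of 0.09 (standard error 0.07) was not called (edgeR adjusted p = 0.329). Itgb1, the beta-1 integrin subunit that also receives Sema7a, was at 299.9 ± 19.0 and 249 ± 14.2 CPM, a log2 fold change of -0.27 that missed the fold threshold. The ratio of Sema7a to Plxnc1 per kilobase was 2.72 and 2.43 in DMSO and 6.63 and 5.96 in GDC0449. An exact two-sided permutation test of 2 against 2 libraries cannot give a p below 0.333, the value reached by each ratio given here.

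Class 6 semaphorins, which span the membrane and bind plexin-A receptors, numbered 4, and 3 of them rose. Sema6b was at 7.38 and 7.39 CPM in DMSO and 18.1 and 18.6 CPM in GDC0449. That is a rise of 2.49-fold (standard error 0.13 on the log2 scale, edgeR adjusted p = 3.79e-12) with hardly any spread within a group. Sema6c went from 28.7 and 26.8 CPM to 61.0 and 62.9 CPM, a rise of 2.23-fold (standard error 0.08 in log2, edgeR adjusted p = 3.70e-17). Sema6d, which binds Plxna1 in chick heart and mouse osteoclasts, went from 14.97 and 14.84 CPM to 37.7 and 35.8 CPM, a rise of 2.46-fold (standard error 0.10 in log2, edgeR adjusted p = 3.98e-16). None of these groups overlapped. With 2 libraries per group a lack of overlap says little alone. Plxna1, Plxnb1, Sema4f, Sema5a and Sema5b, none of them called, did not overlap between groups either. Nor did Sema3e, Sema4c, Sema6a, Plxna3, Plxnd1 and Nrp2, which passed the adjusted p but not the fold threshold. How often groups lie apart over all genes was not counted, so a lack of overlap is given throughout as a description only. Sema6a, the most abundant of the class per kilobase in DMSO, was at 69.5 and 63.7 CPM in DMSO and 95.8 and 88.3 CPM in GDC0449. Its groups did not overlap and it passed the adjusted p at 6.85e-07 in edgeR, but its log2 fold change of 0.47 lay under the 1.5-fold threshold of 0.585.

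The plexin-A receptors of this class did not move as a family. Plxna2 (ENSMUSG00000026640, chromosome 1, 194618218 to 194816869), the receptor of Sema6a in granule neurons, was the only receptor called in the fit on all libraries. It was at 7.23 and 7.08 CPM in DMSO and 13.5 and 11.6 CPM in GDC0449, without overlap. The rise was 1.75-fold (log2 standard error 0.15, edgeR adjusted p = 9.36e-06), and it was lost without DMSO replicate 1 and without DMSO replicate 2, at adjusted p of 0.0619 and 0.0678. Plxna2 stayed scarce, at 0.732 ± 0.0787 RPKM in GDC0449. Plxna1, a receptor shared by class 3 and class 6, was at 64.9 and 63.3 CPM in DMSO and 59.9 and 54.1 CPM in GDC0449, a log2 fold change of -0.17 that was not called (edgeR adjusted p = 0.0773). An antisense gene overlaps 10.7% of the exon length of Plxna1, and with no stated strand setting its reads are uncertain to that extent. Plxna3, a receptor for Sema3f, was at 169.9 and 150.1 CPM in DMSO and 131 and 131 CPM in GDC0449. Its groups did not overlap, and its log2 fold change of -0.29 passed the adjusted p at 0.000454 in edgeR but not the fold threshold. Plxna4, the receptor of Sema6b in mouse hippocampus, had 2 and 1 reads in DMSO and 0 and 1 in GDC0449. These are under the floor of 3 reads in each library, which amounts to 0.142 to 0.186 CPM.

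Class 3 was split between genes that rose, genes that were not called and genes without reads. Sema3f (ENSMUSG00000034684, chromosome 9, 107681500 to 107710475), a secreted repellent that binds neuropilin-2, had the highest fold change of the members. It was at 21.6 and 19.9 CPM in DMSO and 73.7 and 63.9 CPM in GDC0449, so the lowest treated library lay well above both controls. The rise was 3.30-fold (log2 1.72, standard error 0.09, edgeR adjusted p = 5.88e-23). Sema3g, another ligand of neuropilin-2, went from 1.63 and 1.55 CPM to 4.84 and 3.55 CPM, a rise of 2.63-fold (log2 standard error 0.26, edgeR adjusted p = 2.19e-05). It rested on 25 to 102 reads per library and lost its call without DMSO replicate 1 and without DMSO replicate 2, at adjusted p of 0.0845 and 0.0877.

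Sema3e, which signals through Plxnd1 without a neuropilin, pointed the other way. It was at 8.91 and 9.19 CPM in DMSO and 6.41 and 6.16 CPM in GDC0449, without overlap, and its log2 fold change of -0.52 passed the adjusted p at 0.00674 in edgeR but not the fold threshold. Sema3b overlapped between groups, with 2.09 and 1.30 CPM in DMSO and 1.61 and 0.948 CPM in GDC0449 (edgeR adjusted p = 0.335). Sema3a, a ligand of neuropilin-1, had 1 read, in GDC0449 replicate 2, and Sema3c and Sema3d had 0 reads in all 4 libraries. Over all libraries a count of 0 allows up to 0.0385 CPM for counting error.

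The neuropilins lay far apart in level. Nrp1 (ENSMUSG00000025810, chromosome 8, 128358604 to 128503363), the binding receptor of Sema3a, had 2 reads in DMSO replicate 2 and 0 in the other libraries, and was not tested. Nrp2 (ENSMUSG00000025969, chromosome 1, 62703285 to 62818695), the binding receptor of Sema3f and Sema3g, was at 262 and 259 CPM in DMSO and 387 and 380.3 CPM in GDC0449. Its groups were tight and did not overlap. The log2 fold change of 0.56 (standard error 0.06, edgeR adjusted p = 2.65e-11) lay just under the fold threshold. It passed with upper-quartile scaling, at 0.59, and with the filter at 5 CPM, at 0.59. Per kilobase the ratio of Sema3f to Nrp2 was 0.188 and 0.176 in DMSO and 0.434 and 0.383 in GDC0449. Plxnd1, the receptor of Sema3e, was at 149 and 132 CPM in DMSO and 197 and 198 CPM in GDC0449, without overlap. Its log2 fold change of 0.49 passed the adjusted p at 1.38e-08 in edgeR and missed the fold threshold. The ratio of Sema3e to Plxnd1 was 0.0471 and 0.0546 in DMSO and 0.0255 and 0.0245 in GDC0449, the ligand being the lower and the receptor the higher after treatment.

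Class 4 semaphorins, membrane-spanning ligands of plexin-B receptors, had 1 riser among 6. Sema4g (ENSMUSG00000025207, chromosome 19, 44989101 to 45003397), a Plxnb2 ligand of the cerebellum, was at 39.2 and 34.03 CPM in DMSO and 75.6 and 70.2 CPM in GDC0449. The groups did not overlap, and the rise was 1.98-fold (log2 standard error 0.08, edgeR adjusted p = 4.43e-15). Sema4c, the other Plxnb2 ligand known there, was at 33.0 and 29.7 CPM in DMSO and 50.3 and 42.2 CPM in GDC0449. Its log2 fold change of 0.56 (standard error 0.09, edgeR adjusted p = 1.17e-06) missed the fold threshold, and 7.27% of its exon length is shared with a transcript on the other strand. It passed that threshold with upper-quartile scaling at 0.59, with the filter at 5 CPM at 0.59 and without GDC0449 replicate 2 at 0.68. No call was made for Sema4b (log2 fold change -0.07), Sema4d, the ligand of Plxnb1 (-0.13), or Sema4f (-0.33). Sema4b and Sema4d overlapped between groups. Sema4a had 8 to 11 reads per library and was not called; its log2 fold change of -0.02 had a standard error of 0.51, the widest of the tested members.

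Of the plexin-B receptors, neither Plxnb2 nor Plxnb1 was called. Plxnb2 (ENSMUSG00000036606, chromosome 15, 89155549 to 89180788) was at 3212 and 2884 CPM in DMSO and 3248 and 2946 CPM in GDC0449. The groups overlapped almost fully, and the log2 fold change was 0.02 (standard error 0.06, edgeR adjusted p = 0.803). Plxnb1, a receptor that partners with Met and Erbb2, was at 116 and 112 CPM in DMSO and 126 and 118 CPM in GDC0449, a log2 fold change of 0.09 that was not called (edgeR adjusted p = 0.296). Plxnb3, a receptor of Sema5a, had 2 to 7 reads per library and was not tested. Sema5a and Sema5b, semaphorins with thrombospondin repeats, had 15 to 33 and 7 to 21 reads per library. Their log2 fold changes of 0.67 and 0.88 had standard errors of 0.35 and 0.48 and were not called (edgeR adjusted p = 0.132 and 0.156). The ratio of Sema4g to Plxnb2 per kilobase was 0.0109 and 0.0105 in DMSO and 0.0208 and 0.0212 in GDC0449.

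**Figure D3:**
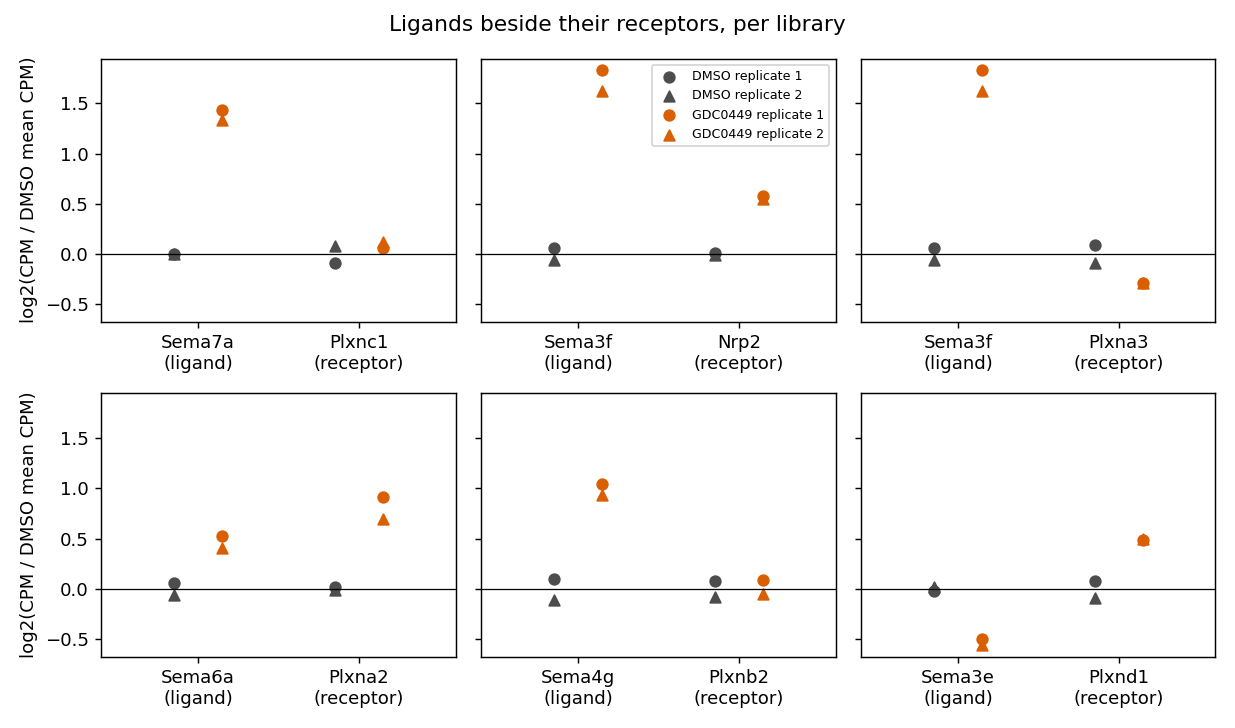
Log2 of CPM over the DMSO mean (y axis) for 6 pairs of a ligand and a receptor it is known to bind, in each of the 4 libraries; grey marks DMSO and orange GDC0449. In GDC0449 Sema7a, Sema3f and Sema4g lie further up than Plxnc1, Nrp2 and Plxnb2. Plxna2 lies further up than Sema6a, and Sema3e and Plxnd1 lie on opposite sides of 0; of Sema3f and its other receptor Plxna3, the receptor lies below 0.

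Summed per kilobase, the semaphorins lay below the receptors other than Plxnb2 in both DMSO libraries and above them in both GDC0449 libraries. All semaphorins together were at 76.1 ± 2.41 RPKM in DMSO and 163 ± 8.38 RPKM in GDC0449 (SD, n = 2), 2.14 times as high. Without Sema7a the sums were 42.3 and 38.8 RPKM in DMSO and 73.1 and 67.5 RPKM in GDC0449. Receptors together were at 489.7 ± 32.9 and 512 ± 28.7 RPKM, and without Plxnb2 at 94.9 ± 2.81 and 111 ± 1.14 RPKM. The ratio of semaphorins to receptors without Plxnb2 was 0.804 and 0.801 in DMSO and 1.52 and 1.43 in GDC0449. With Plxnb2 it was 0.152 and 0.160 in DMSO and 0.318 and 0.320 in GDC0449. Class 3 summed to 5.68 ± 0.338 RPKM in DMSO and 15.1 ± 1.66 in GDC0449, class 4 to 19.2 ± 1.48 and 25.9 ± 1.97, and class 6 to 15.5 ± 0.697 and 29.0 ± 0.410. Plexin-A genes summed to 27.8 ± 1.91 and 23.7 ± 0.506 RPKM. Sema7a held 45.7% and 47.9% of the semaphorin RPKM in DMSO and 56.7% and 57.1% in GDC0449. The sums describe these libraries and were not tested.

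**Figure D4:**
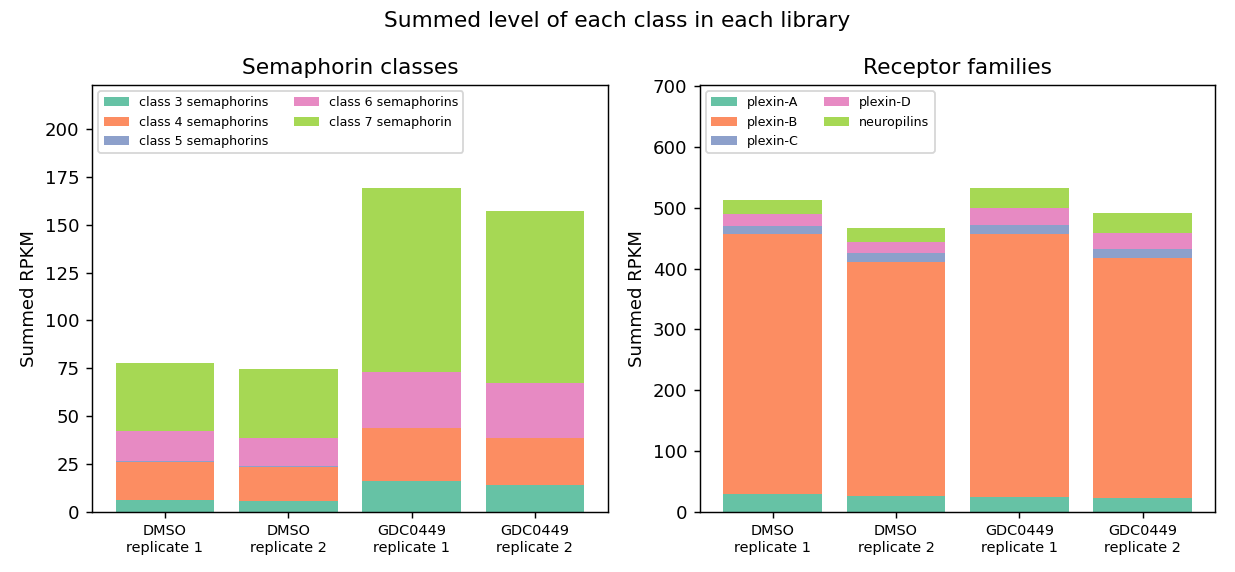
Summed RPKM (y axis, from 0), stacked by semaphorin class, left, and receptor family, right, with 1 bar for each of the 4 libraries. The semaphorin bars reach 163 RPKM on average in GDC0449 against 76.1 in DMSO, and the receptor bars, mostly plexin-B, average 489.7 and 512 RPKM.

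The level of a gene bears on how often it is called. Of 10 members at a mean of 5 to 50 CPM, 5 rose, where 8.21% of all tested genes at that level did. At 50 to 500 CPM 2 of 9 members rose, against 3.74% of all, and below 5 CPM 1 of 5 rose, against 14.4% of all.

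Genes that work with these receptors were read from lists of the pathway. Of 18 co-receptors and receptor partners 12 were tested, 1 rose and 1 fell, and the 8.33% that rose is near the 8.68% of all tested genes. The riser was Cntn2, an adhesion molecule of the immunoglobulin family on early neurons, which went from 142 ± 9.20 to 422 ± 26.7 CPM (2.97-fold, edgeR adjusted p = 2.71e-27). The gene that fell was Tyrobp, the signalling adaptor that joins Plxna1 in myeloid and bone cells, with 16 and 17 reads in DMSO and 3 and 6 in GDC0449 (edgeR adjusted p = 0.00193). Leaving out DMSO replicate 1, DMSO replicate 2 or GDC0449 replicate 1 ended the call (adjusted p = 0.0653, 0.0958 and 0.0579), as did DESeq2 (0.0539). It is also 1 of the 6 microglia and macrophage markers, whose summed level was 1.53 and 2.55 CPM in DMSO and 0.807 and 1.04 CPM in GDC0449. Of the others, Csf1r had 10 and 9 reads in DMSO and 8 and 5 in GDC0449 (log2 fold change -0.77, not called), and C1qa had 3 and 14, then 3 and 6. Aif1, Cx3cr1 and P2ry12 had 0 to 3 reads in each library. The part of such cells in the Tyrobp value was not tested. L1cam and Nrcam, adhesion partners of neuropilins, and Erbb2 were not called, with log2 fold changes from -0.27 to 0.06.

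In the cytoplasm, 4 of 36 listed relay genes rose and 0 fell, and DESeq2 and limma-voom gave the same counts. The share that rose, 11.1%, is near the 8.68% of all tested genes. With edgeR 6 were lower at an unadjusted p under 0.05. The median of the list was 0.14. Rnd2, which acts in neuron migration, was at 15.2 ± 0.352 and 36.2 ± 2.85 CPM, a rise of 2.38-fold (edgeR adjusted p = 2.53e-15). Dpysl4 and Dpysl3, collapsin response mediators that act downstream of semaphorins, rose from 22.2 ± 0.426 to 44.5 ± 3.89 CPM and from 50.4 ± 1.68 to 79.9 ± 6.74 CPM. Mical2, an enzyme that disassembles actin, rose from 18.7 ± 0.544 to 29.0 ± 2.54 CPM. The call of Mical2 was lost without DMSO replicate 1, DMSO replicate 2 and GDC0449 replicate 1 in turn (adjusted p = 0.0519 and 0.0643, and a log2 fold change of 0.54), and that of Dpysl3 without GDC0449 replicate 2 (log2 fold change 0.57). Dpysl2 lay just under the fold threshold at 0.57.

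Neuropilins also bind vascular endothelial growth factors, and 4 of 5 listed ligands of that family were tested. Of these 1 rose and 2 fell, where 8.68% of all tested genes were called higher and 3.85% lower. Vegfa fell from 162 ± 4.41 to 76.8 ± 3.65 CPM and Pgf from 49.6 ± 0.560 to 29.4 ± 0.109 CPM (edgeR adjusted p = 1.30e-19 and 1.04e-10). Vegfd rose, on 5 and 8 reads in DMSO and 22 and 23 in GDC0449 (edgeR adjusted p = 0.00938), a call that ended on leaving out DMSO replicate 1 (adjusted p = 0.163) or 2 (0.0714) and with DESeq2 (0.132). Of 6 proteases that process semaphorins 1 rose and 0 fell with edgeR, DESeq2 and limma-voom, and 0 were lower at an unadjusted p under 0.05. The 16.7% that rose is 1 gene, beside the 8.68% of all tested genes called higher and the 3.85% called lower. Pcsk5, a proprotein convertase, went from 5.89 ± 0.192 to 11.0 ± 0.996 CPM (edgeR adjusted p = 3.84e-06), a call that ended on leaving out DMSO replicate 1 (0.0551) or 2 (0.0538). Furin, the convertase best known for cutting class 3 semaphorins, was at 29.3 and 28.5 CPM on average in the groups.

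**Figure D5:**
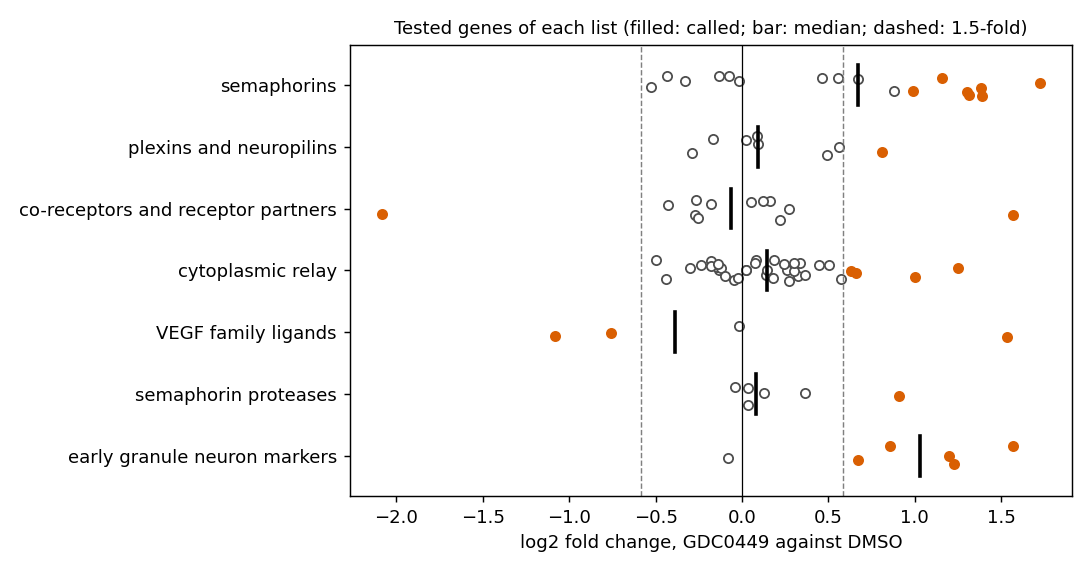
Log2 fold change (x axis) of each tested gene in 7 lists, with filled points for called genes, a bar at each median and dashed lines at 1.5-fold. The medians are 0.67 for semaphorins, 0.09 for plexins and neuropilins and 1.03 for early granule neuron markers.

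Most markers of neuronal differentiation moved with the semaphorins. Of 6 early granule neuron markers 5 rose, and their summed level was 824 and 773 CPM in DMSO and 1601 and 1513 CPM in GDC0449. Dcx, which binds microtubules in young neurons, went from 93.6 ± 6.51 to 214 ± 2.63 CPM, and Cntn2 is on this list too. The exception was Rbfox3, which was not called (48.3 to 45.8 CPM on average, log2 fold change -0.08, edgeR adjusted p = 0.489). Of 6 progenitor markers 5 were tested and 2 rose, with summed levels of 826 and 823 CPM in DMSO and 976 and 1059 CPM in GDC0449. The risers were Atoh1 (56.8 to 99.9 CPM on average, 1.76-fold) and Mfap4 (22.9 to 40.1 CPM on average, 1.75-fold). Of 6 astrocyte markers 5 were tested and 2 rose (155 and 170.2 CPM summed in DMSO, 270.0 and 262 CPM in GDC0449), with Aqp4 at 0. Of 6 skeletal muscle markers 2 of 5 tested rose, and the list summed to 8.63 to 9.06 CPM in DMSO and 20.8 to 23.4 CPM in GDC0449. In each of the progenitor, astrocyte and muscle lists 40% of the tested markers rose, beside the 8.68% of all tested genes. Of 6 oligodendrocyte lineage markers 3 were tested; 1 passed the adjusted p and none the fold threshold as well. The part of these cell states in the semaphorin values was not tested. In bulk libraries, more cells of a kind and more RNA per cell cannot be told apart.

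The authors' deposited FPKM values gave folds of the same direction for the 8 risen members. The mean FPKM in GDC0449 over that in DMSO was 2.59 for Sema7a, 3.74 for Sema3f, 2.67 for Sema3g, 2.44 for Sema4g, 2.54 for Sema6b, 2.55 for Sema6c, 2.49 for Sema6d and 2.03 for Plxna2. For Sema5a the deposited FPKM went against the counts, with a ratio of 0.581 where the counts gave a fold of 1.59. It was at 0.115 FPKM in DMSO replicate 2 and at 0.0262 to 0.0427 FPKM in the other libraries.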

How the data were processed

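RNA-seq libraries of 2 DMSO and 2 GDC0449 samples were read from 1 deposited table. The tools named in the submitters' processing notes are Trim Galore, HISAT2, HTSeq 0.11.1 and DESeq2 1.26.0, with the build mm10; per the labels, HTSeq gave the raw counts per gene. The authors also deposited FPKM values (scaled to gene length and depth). Which annotation release, strand setting and FPKM tool were used is not stated. Besides 55573 genes the table has 6 summary entries, which stayed out of library sizes and tests: reads in no gene were 12.3% to 14.4% of all reads, ambiguous ones 4.73% to 4.91%, and multiply aligned ones 10.4% to 10.7%. Symbols, positions and exon lengths came from GENCODE M21 (GRCm38), which held 55480 of the identifiers.

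The deposited counts were fitted over all genes by edgeR's quasi-likelihood test (edgeR 4.0.16, R 4.3.3; TMM scaling, default filter, group as the only term), tested on simulated data with 200 changed genes. The biological coefficient of variation was 4.82%. The spread behind each p-value was drawn largely from all genes together (median prior degrees of freedom 49.9), so a small p-value does not rest on the libraries of that gene alone. Libraries of a group differed by more than sampling noise (chi-square of 4.11 and 3.41 per gene). CPM and RPKM were computed here from the counts. The limit for a count of 0 is 3 reads and covers counting error only. Alternatives were other scalings, filters and thresholds, DESeq2 1.42.0, limma-voom (limma 3.58.1), limma on log2(FPKM + 1) and log2(FPKM + 0.1), a replicate block, edgeR's earlier quasi-likelihood method (added after seeing the data) and each library left out. The members and lists were chosen with earlier results of these data known. All 31 members are named, with up to 6 called genes of each pathway list. Itgb1, Itga1, L1cam, Nrcam, Erbb2, Dpysl2, Furin, Rbfox3, Atoh1, Mfap4, the microglia markers and the markers at 0 were added after their values were seen.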

Additional observations from a re-analysis of the deposited data

How the results depend on the processing

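Of the 8 called members, 6 kept their call in 14 of 15 alternatives. Sema3g kept it in 9 of 12 and Plxna2 in 10 of 13, both losing it without DMSO replicate 1 or 2. In the other alternatives a filter had removed them untested. Those were the filter at 1 FPKM on both FPKM scales for Sema3g and Plxna2, and the filter at 5 CPM for Sema3g. The alternative that ended all 8 was limma on log2(FPKM + 1) with no filter, which called 0 genes in each direction and in every list (3154 genes were higher and 2786 lower at an unadjusted p under 0.05). Over all genes, 746 were called higher with no filter, 799 with the filter at 5 CPM, 520 on log2(FPKM + 1), 661 on log2(FPKM + 0.1), 2794 by adjusted p alone and 648 at a fold over 2, and 500 to 1221 with a library left out. Called lower were 366 with the filter at 5 CPM, 350 on log2(FPKM + 1), 2793 by adjusted p alone and 312 at a fold over 2, and 351 to 605 with a library left out. By adjusted p alone the members held 2 lower genes, the ligands 1 and the receptors 1; receptors held 3 higher, partners 2 higher and 3 lower, and the relay list 16 higher and 4 lower. Receptors called higher were 2 with upper-quartile scaling and with the filter at 5 CPM, and 0 at a fold over 2. On both filtered FPKM scales 0 were called, with Plxna2 not tested. With a library left out 0 to 1 were called. The call for Tyrobp among the partners was lost with no filter and with DESeq2. With the filter at 5 CPM and on both filtered FPKM scales Tyrobp was not tested. With a library left out the number of lower partners was 0 to 1. The same held for Vegfd as the higher gene of its list. Pcsk5 was not tested on both filtered FPKM scales and not called at a fold over 2. The number of higher proteases was 0 to 1 with a library left out. At a fold over 2 the relay list held 2 higher genes, the VEGF family 1 lower and the early neuron markers 3 higher. Members called higher numbered 6 to 9 with a library left out. Log2 fold changes near 0 changed sign, none of them called: Sema4a with upper-quartile scaling (0.0169) and with a library left out (-0.0876 to 0.0479, with 0.000499 without DMSO replicate 1); Sema4f on log2(FPKM + 1), filtered or not (0.0507), and log2(FPKM + 0.1) (0.0793); Sema5a on unfiltered log2(FPKM + 1) (-0.0391); Plxnb1 on log2(FPKM + 1), filtered or not (-0.0358), and log2(FPKM + 0.1) (-0.0392); Plxnb2 with a library left out (-0.0611 to 0.1002, negative without DMSO replicate 2 and, at -0.0505, without GDC0449 replicate 1). The causes were not tested.

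Replicate numbers did not pair the libraries by the labels, and deviations from the group means correlated at 0.0351 between same-numbered libraries. A fit with the replicate block called 1407 genes higher and 615 lower, and 8 members higher and 0 lower.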
